A study of Mus musculus with 17 samples.

Results

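Transcripts that mark B cells were followed in RNA of sorted Kupffer cells (KCs), the macrophages that reside in liver sinusoids. The 7 genes were *Cd79a*, *Cd79b*, *Ms4a1*, *Blk*, *Fcmr*, *Pax5* and *Ebf1*, chosen by symbol as genes of the B cell receptor, of B cell surface proteins and of B lineage transcription, out of 25124 genes listed in each of 3 expression tables. Of the 17 mouse samples, 12 were TIM4+CD206+ or TIM4+CD206 high KCs, each subset sorted 3 times from livers with tumour and 3 times from livers without, and 5 were KCs of mice without tumour, 3 of them *Id3* f/f and 2 with *Clec4f* cre in addition. The tumour-bearing mice had received KPC cells, a mouse pancreatic cancer line, through the portal vein 2 weeks earlier, and the tumour-free mice none. In *Clec4f* cre*Id3* f/f mice the KC gene *Clec4f* drives Cre, which deletes the floxed *Id3* in KCs, while their *Id3* f/f littermates carry the same floxed alleles without Cre. The age of the animals behind these libraries was not given in the sources used here. The sort gate kept CD45+F4/80+TIM4+ cells and left out lymphocytes and neutrophils by their surface markers. RNA was amplified as cDNA before sequencing, and p-values measure the spread between samples. The study counts its *Id3* samples by mice, while the labels of the tumour comparisons do not name animals. Whether both KC subsets came from the same livers is therefore not known, and their results may not be independent.

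B cells sense antigen through membrane immunoglobulin, which signals through the paired chains CD79A and CD79B. The transcription factors EBF1 and PAX5 set up and hold B cell identity, in part by switching on *Cd79a*. B cells pass through the sinusoids in which KCs sit.

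The deposited values are on a log2 scale and were normalized within each of the 3 tables, so that levels in different tables are set side by side without a test. Genes with few reads have values drawn towards their mean by the transformation, and differences between groups are understated for them. The linear values of a sample summed to between 34088200 and 39683800 for TIM4+CD206+ KCs, 32647000 and 35102200 for TIM4+CD206 high KCs and 21823900 and 24050900 in the *Id3* table. A gene was tested where its value reached 3.32, which is the log2 of 10 counts, in 3 samples, or in 2 for the *Id3* comparison. Tumour-free replicate 2 stood apart in both KC subsets. Without it, the number of genes with an adjusted p under 0.05 rose from 469 to 1018 in TIM4+CD206+ samples, and among TIM4+CD206 high samples from 1053 to 3653, and results that it decides are given with and without it.

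The sorted cells carried the transcripts of KCs in all groups. *Clec4f*, a C-type lectin of KCs, had mean values of 19.28 and 18.49 in tumour-free and tumour-bearing TIM4+CD206+ KCs, and 18.29 and 17.71 in TIM4+CD206 high KCs. In the *Id3* table it had log2 values of 17.59, 17.62 and 17.71 in *Id3* f/f and 16.13 and 16.11 in *Clec4f* cre*Id3* f/f KCs, a log2 fold change of −1.52 (adjusted p = 1.8e-06 in limma, its alternatives not run). Only the latter carry the *Clec4f* cre allele, so its effect on *Clec4f* and that of *Id3* loss cannot be told apart. *Timd4*, which encodes the sort marker TIM4, fell in TIM4+CD206+ KCs, from a mean of 14.69 to 13.94 (log2 fold change −0.75, lower in 3 of 3 samples), close to the threshold with an adjusted p of 0.0463 in limma and without its alternatives run, while its means of 14.85 and 14.21 in the TIM4+CD206 high subset did not pass (adjusted p = 0.149). *Mrc1*, which encodes CD206, lay between 12.37 and 13.18 in the first subset and between 14.96 and 16.19 in the second. The 15 KC markers of a list summed to log2 values of 21.90, 21.34 and 21.58 in tumour-free and 21.13, 21.03 and 21.12 in tumour-bearing TIM4+CD206+ KCs, and to 20.53, 20.39 and 20.84 against 20.35, 20.19 and 20.25 in the other subset. These sums were thus lower in all tumour-bearing samples, as those of the B cell genes were.

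B cell transcripts made up a small share of the RNA, and the share was lower in tumour-bearing livers. In TIM4+CD206+ KCs the 7 genes took 0.0245% ± 0.00287% of the summed linear values in tumour-free samples and 0.0132% ± 0.00108% in tumour-bearing samples (mean ± SD, n = 3). In the other subset, TIM4+CD206 high, they took 0.0109% ± 0.00111% and 0.00630% ± 0.000186% (n = 3). The samples of the groups did not overlap in either subset, with the lowest tumour-free sample at 0.0224% against the highest tumour-bearing sample at 0.0143% in the first, and 0.00992% against 0.00650% in the second, and these shares were not tested. In bulk RNA, fewer B cells among the sorted cells and less B cell RNA per cell cannot be told apart.

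Compared per kilobase of exon, the order of the 7 genes was led by *Cd79b* and then *Cd79a* in all 6 groups. In tumour-free TIM4+CD206+ KCs the mean log2 levels per kilobase were 11.69 for *Cd79b*, 10.99 for *Cd79a*, 8.06 for *Fcmr*, 7.42 for *Blk*, 5.63 for *Ms4a1*, −0.03 for *Pax5* and −0.22 for *Ebf1*. *Fcmr* and *Blk* did not differ beyond their spread over samples, and neither did *Pax5* and *Ebf1*. In tumour-bearing TIM4+CD206+ KCs the order was the same, with gaps larger than the spread among the first 5. In tumour-free TIM4+CD206 high KCs, *Cd79b* at 10.17 and *Cd79a* at 9.50 were followed by *Ms4a1* at 6.41, *Fcmr* at 6.40 and *Blk* at 6.18, which did not differ beyond their spread, and then by *Ebf1* at 2.40 and *Pax5* at 2.38, which did not either. In tumour-bearing TIM4+CD206 high KCs *Fcmr* at 6.93 came next, ahead of *Blk* at 5.85 and *Ms4a1* at 5.61, and the last pair of these did not differ beyond their spread, nor did *Ebf1* and *Pax5*. In *Id3* f/f KCs the log2 levels per kilobase ran from *Cd79b* at 9.63 and *Cd79a* at 6.89 through *Fcmr* at 5.53, *Ms4a1* at 3.80 and *Blk* at 3.44 to *Ebf1* at −0.31 and *Pax5* at −2.82, and the same order held with *Clec4f* cre, with gaps larger than the spread among the first 5. *Pax5* and *Ebf1* were under the log2 of 10 counts in the TIM4+CD206+ and *Id3* tables, where the transformation also shrinks the spread, so their order is not read there. *Cd79b* stood 0.70 and 0.68 above *Cd79a* per kilobase in the tumour-free TIM4+CD206+ and TIM4+CD206 high KCs, and 2.74 above it in *Id3* f/f KCs.

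**Figure D1:**
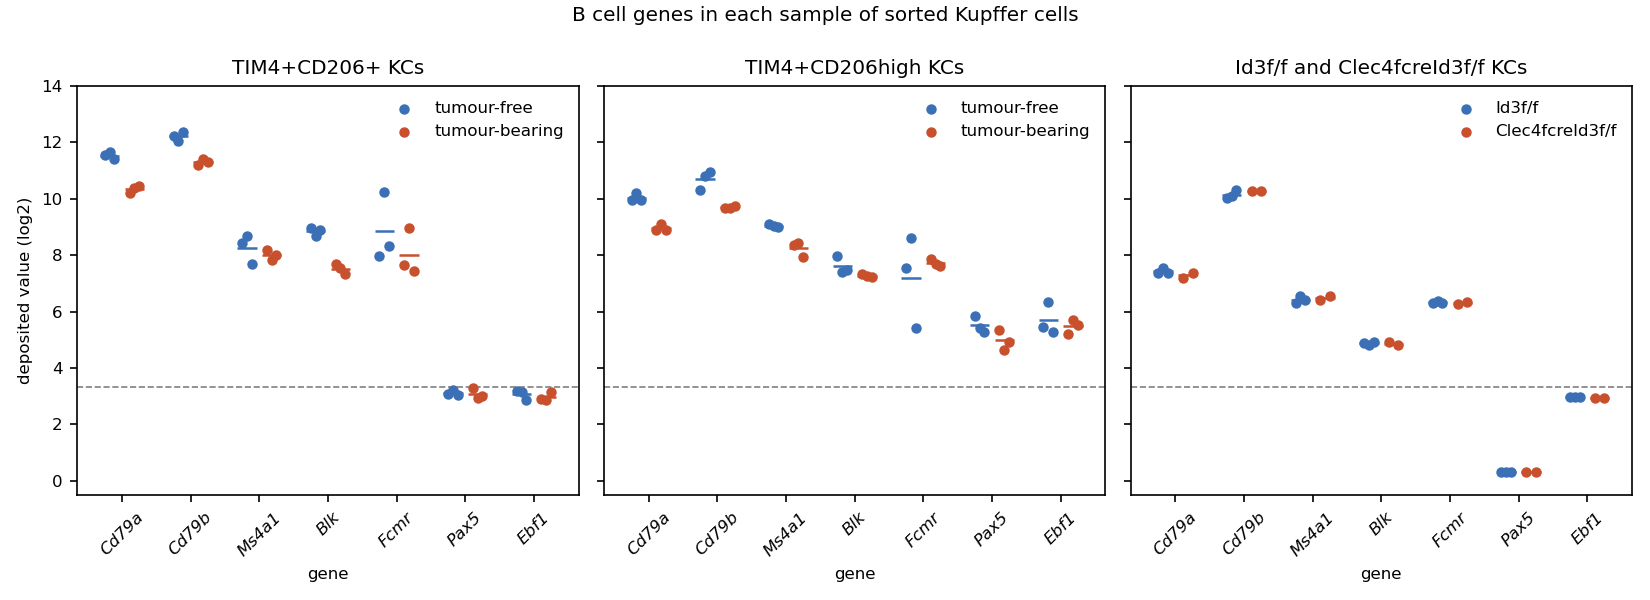
Deposited log2 value of the 7 B cell genes in each sample of the 3 tables, with tumour-free or *Id3* f/f samples in blue, tumour-bearing or *Clec4f* cre*Id3* f/f samples in red, and a bar at each group's mean. The dashed line marks 3.32, the log2 of 10 counts, and *Pax5* and *Ebf1* lie under it in every sample of the left and right panels.

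Both signalling chains of the B cell receptor were lower in tumour-bearing livers in both KC subsets. *Cd79a* (chromosome 7, 24897381 to 24902197, + strand of GRCm38) had log2 values of 11.55, 11.66 and 11.40 in tumour-free and 10.20, 10.38 and 10.47 in tumour-bearing TIM4+CD206+ KCs. All 3 tumour-bearing samples lay below all 3 tumour-free samples, and each group spread over less than the gap between them. The log2 fold change was −1.18 (SE 0.17, 95% confidence interval −1.56 to −0.80), with an adjusted p of 0.00687 in limma, lower in 3 of 3 samples. *Cd79a* in TIM4+CD206 high KCs had log2 values of 9.96, 10.20 and 9.95 in tumour-free and 8.89, 9.10 and 8.89 in tumour-bearing samples. The groups were again apart, with a log2 fold change of −1.08 (SE 0.18, interval −1.50 to −0.66) and an adjusted p of 0.0115, lower in 3 of 3 samples. *Cd79a* remained past the threshold in 12 of 12 alternatives in TIM4+CD206+ KCs, where its adjusted p ran from 0.00161 to 0.0470. It did so in 9 of 12 in TIM4+CD206 high KCs, with an adjusted p of 0.0887, 0.0552 and 0.0773 without tumour-bearing replicate 1, 2 and 3.

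*Cd79b* (chromosome 11, 106311341 to 106314762, − strand) encodes the partner chain and was the most abundant of the 7 genes. Its log2 values in TIM4+CD206+ KCs were 12.22, 12.04 and 12.37 in tumour-free and 11.19, 11.42 and 11.30 in tumour-bearing samples. The groups did not overlap, and the log2 fold change was −0.91 (SE 0.16, interval −1.28 to −0.54; adjusted p = 0.0209, lower in 3 of 3 samples). The TIM4+CD206 high samples had log2 values of 10.32, 10.80 and 10.94 against 9.67, 9.67 and 9.75. The tumour-bearing samples were nearly alike here and all lower, with a log2 fold change of −0.99 (SE 0.21, interval −1.48 to −0.51; adjusted p = 0.0297, lower in 3 of 3 samples). Single samples decided the *Cd79b* calls. In TIM4+CD206+ KCs the adjusted p was 0.0746, 0.0913, 0.121, 0.0651 and 0.102 without tumour-free replicate 1 or 3 and tumour-bearing replicate 1, 2 or 3, and 0.00658 without tumour-free replicate 2, which are the ends of its range over alternatives at 0.00658 and 0.121. For the TIM4+CD206 high subset it was 0.150, 0.147 and 0.116 without tumour-bearing replicate 1, 2 and 3 and 0.0642 in the fit blocked by replicate number, within a range over alternatives of 0.0201 to 0.150. The difference between the subsets in these changes was not tested.

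*Blk* (chromosome 14, 63372836 to 63417037, − strand) encodes a kinase of the Src family that acts in B cell receptor signalling and is also transcribed in plasmacytoid dendritic cells. In TIM4+CD206+ KCs its log2 values were 8.95, 8.68 and 8.91 in tumour-free and 7.69, 7.53 and 7.34 in tumour-bearing samples. The groups were more than 0.9 apart, and *Blk* had the largest change of the 7 genes there, with a log2 fold change of −1.33 (SE 0.22, interval −1.84 to −0.82; adjusted p = 0.0168, lower in 3 of 3 samples). The call was lost with an adjusted p of 0.0699, 0.0706, 0.0507, 0.0646 and 0.0818 without tumour-free replicate 1 or 3 and tumour-bearing replicate 1, 2 or 3, and over all alternatives the adjusted p ran from 0.00558 to 0.0818. The log2 values of *Blk* in TIM4+CD206 high KCs were 7.96, 7.41 and 7.47 against 7.33, 7.27 and 7.24. The tumour-bearing samples lay just below the lowest tumour-free sample, and the log2 fold change of −0.34 (interval −0.86 to 0.19; adjusted p = 0.417) did not pass the test. It was −0.16 without tumour-free replicate 1 and −0.63 with quantile normalization, the ends of its range over alternatives.

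*Ms4a1* (chromosome 19, 11249675 to 11266241, − strand) encodes CD20, a surface protein of mature B cells. In TIM4+CD206+ KCs its log2 values were 8.43, 8.67 and 7.67 in tumour-free and 8.17, 7.82 and 8.02 in tumour-bearing samples. Tumour-free replicate 3 was the lowest of the 6, so that the groups overlapped, and the log2 fold change of −0.25 (interval −0.94 to 0.43; adjusted p = 0.754) was within the spread. It was −0.05 without tumour-free replicate 2 and −0.55 without replicate 3, the ends of its range over alternatives. In TIM4+CD206 high samples the log2 values were 9.10, 9.04 and 8.99 against 8.37, 8.43 and 7.93. Here the groups did not overlap, but the log2 fold change of −0.80 (interval −1.29 to −0.31), lower in 3 of 3 samples, missed the threshold with an adjusted p of 0.0699. *Ms4a1* passed it with quantile normalization, at −1.02 and an adjusted p of 0.0349, and without tumour-free replicate 2, at −0.80 and 0.0413, within a range over alternatives of 0.0349 to 0.286. An antisense gene overlaps *Ms4a1* on the other strand, and since the amplification kit is not stated to keep the strand, reads of the pair cannot be told apart.

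*Fcmr* (chromosome 1, 130865669 to 130880791, + strand) encodes the receptor for the Fc part of IgM. In TIM4+CD206+ KCs its log2 values were 7.97, 10.25 and 8.33 in tumour-free and 7.63, 8.95 and 7.45 in tumour-bearing samples. Replicate 2 was the highest in both groups, the groups overlapped, and the log2 fold change of −0.84 had an interval from −2.27 to 0.59 (adjusted p = 0.565). Between samples of the same number *Fcmr* was lower with tumour in 3 of 3, and the adjusted p was 0.0675 in the fit blocked by replicate number, the lowest over alternatives, which reached 0.874 without tumour-free replicate 2, where the log2 fold change was −0.14. *Fcmr* in TIM4+CD206 high KCs had log2 values of 7.56, 8.60 and 5.43 in tumour-free and 7.87, 7.67 and 7.63 in tumour-bearing samples. The tumour-free samples ran from the lowest to the highest of the 6, and the log2 fold change was 0.53 (interval −1.17 to 2.22; adjusted p = 0.689). Without tumour-free replicate 3 it turned to −0.36, and without replicate 2 it was 1.23. The SD of *Fcmr* over tumour-free samples was 1.22 and 1.62 in the subsets, against 0.13 and 0.14 for *Cd79a*.

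*Pax5* (chromosome 4, 44524757 to 44710487, − strand) and *Ebf1* (chromosome 11, 44617317 to 45008091, + strand), the transcription factors, were near the detection limit. In TIM4+CD206+ KCs the log2 values of *Pax5* were 3.08, 3.22 and 3.04 in tumour-free and 3.30, 2.95 and 2.99 in tumour-bearing samples, and those of *Ebf1* were 3.19, 3.14 and 2.86 against 2.88, 2.86 and 3.15. All lay under the log2 of 10 counts, groups overlapped for both genes, and neither was tested. *Pax5* in TIM4+CD206 high KCs had log2 values of 5.86, 5.42 and 5.29 against 5.36, 4.65 and 4.94. *Ebf1* had 5.45, 6.32 and 5.29 against 5.22, 5.70 and 5.53. Both genes were above the limit there, and their groups overlapped. The log2 fold changes were −0.54 for *Pax5* (interval −1.16 to 0.08; adjusted p = 0.291) and −0.21 for *Ebf1* (interval −0.94 to 0.53; adjusted p = 0.719), and that of *Ebf1* was 0.11 without tumour-free replicate 2. With quantile normalization they were −0.93 and −0.58. Genes on the other strand overlap both, and the microRNA gene *Mir5120* lies within *Pax5* on the same strand, so that their reads cannot be told apart either.

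Of the 7 genes, 5 were tested in TIM4+CD206+ KCs, and 3 (*Cd79a*, *Cd79b* and *Blk*) were lower with an adjusted p under 0.05, where 0.998% of the 13233 genes tested were lower and 2.55% higher. The same 3 had groups that did not overlap with lower values in tumour-bearing samples, as 10.5% of all genes tested had. With the replicate number as a block, 1026 genes passed in place of 469, and the count of B cell genes was 3. That count was 1, *Cd79a*, when any single sample but tumour-free replicate 2 was left out, and the count over all genes was then 228 to 263. All 7 were tested in TIM4+CD206 high KCs and 2 (*Cd79a* and *Cd79b*) were lower past the threshold, where 2.03% of the 14561 genes tested were lower and 5.21% higher. In 4 of the 7 (*Cd79a*, *Cd79b*, *Ms4a1* and *Blk*) the groups did not overlap with lower values in tumour-bearing samples, against 15.2% of all genes tested. The count of 2 became 3 when tumour-free replicate 2 was left out and 0 when any tumour-bearing replicate was, with 582, 579 and 639 genes past the threshold in those 3 cases. The median log2 fold change of the genes tested among the 7 was −0.91 in TIM4+CD206+ and −0.54 in TIM4+CD206 high KCs, beside 0.02 and 0.03 over all genes tested. The median value of all genes was 0.16 higher in tumour-bearing samples of the latter, and with medians centred the log2 fold changes were −1.24 for *Cd79a* and −1.16 for *Cd79b*. With quantile normalization 518 of 1182 genes past the threshold were lower there, in place of 295 of 1053.

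**Figure D2:**
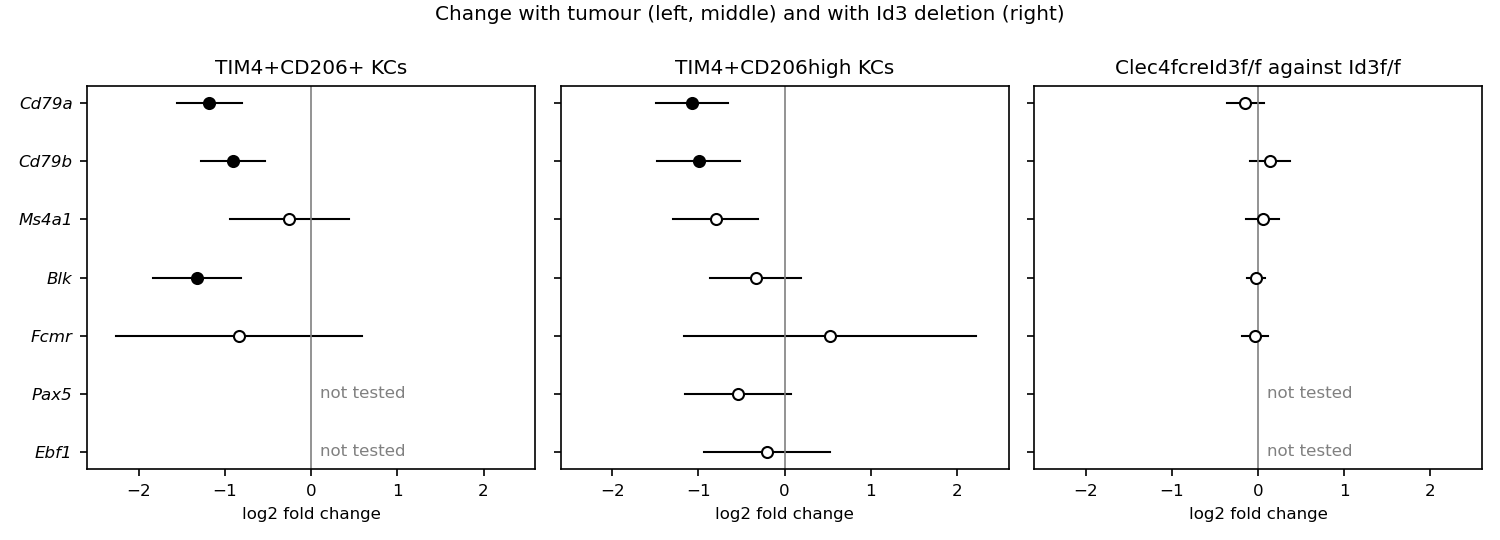
Log2 fold change of the 7 B cell genes with tumour in TIM4+CD206+ KCs (left) and TIM4+CD206 high KCs (middle) and with *Id3* deletion (right), with 95% confidence intervals as lines and filled points where the adjusted p was under 0.05. *Cd79a* and *Cd79b* are filled in both tumour comparisons, at −1.18 and −0.91 and at −1.08 and −0.99, and no B cell gene is filled on the right.

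Of 8 genes listed as B cell-restricted co-receptors and adaptors of the B cell receptor, 8 were tested in TIM4+CD206+ KCs, 1 fell and none rose. This was *Cd22*, an inhibitory receptor, with a log2 fold change of −0.78 (adjusted p = 0.0416, lower in 3 of 3 samples) that missed the threshold without any sample other than tumour-free replicate 2, at an adjusted p of 0.0918, 0.153, 0.106, 0.138 and 0.172, and also with no filter (0.0667), no trend (0.0696) or medians centred (0.0576). Among TIM4+CD206 high KCs 2 of 7 tested fell and none rose. They were *Fcer2a*, which encodes the IgE receptor CD23, at −1.21 (adjusted p = 0.0170), and *Fcrla*, an Fc receptor-like gene, at −0.99 (adjusted p = 0.0419), each lower in 3 of 3 samples. The call of *Fcer2a* was lost without tumour-free replicate 1 (0.0590) and tumour-bearing replicate 1 (0.113) or 2 (0.107), and that of *Fcrla* without any sample other than tumour-free replicate 2, at 0.124, 0.0594, 0.176, 0.172 and 0.187, nor did *Fcrla* pass with no filter (0.0654), the stricter filter (0.0523) or the replicate block (0.109). The median log2 fold change of those tested was −0.60 and −0.56 in the subsets. The most abundant of the list in tumour-free TIM4+CD206 high KCs was *Bank1*, with a mean of 12.65, above *Cd79b* at 10.69. Whether the listed genes are restricted to B cells was not tested.

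Of 11 signalling genes of the B cell receptor that macrophages also use, limma called 0 in either subset, with 7 and 2 at an unadjusted p under 0.05, beside 2272 and 3069 of all genes tested. Of the 11, 10 had lower means with tumour in TIM4+CD206+ KCs, 8 of them without overlap, beside 10.5% of all genes tested. The other, *Fcgr2b*, had a higher mean without overlap, at a log2 fold change of 1.42 (adjusted p = 0.115 in limma). The median over the 11 was −0.41, so the lower means of these 10 genes lay in the direction of the B cell genes. In the other subset the median was −0.07. The most abundant was *Cd81*. Of 10 B lineage transcription factors tested, limma called 0 in either subset, with 1 and 2 at an unadjusted p under 0.05. These list counts are from the fit without the replicate block. Of 8 receptors for B cell homing and survival, limma called 0 in TIM4+CD206+ KCs, with 4 at an unadjusted p under 0.05. *Cd40* fell in TIM4+CD206 high KCs, at −0.80 (adjusted p = 0.0375, lower in 3 of 3 samples), but not without tumour-free replicate 1 (0.0768) or tumour-bearing replicate 1 (0.190), 2 (0.198) or 3 (0.127), nor with the stricter filter (0.0504) or the replicate block (0.0970).

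Among ligands that act on B cells, limma called 0 of 5 tested in TIM4+CD206+ KCs, with 3 at an unadjusted p under 0.05, and 1 of 6 in TIM4+CD206 high KCs. This was *Cxcl13*, the chemokine that draws B cells into follicles, with log2 values of 11.47, 12.00 and 12.24 in tumour-free and 10.63, 10.16 and 11.08 in tumour-bearing samples. The groups did not overlap, and the log2 fold change of −1.28 (adjusted p = 0.0464) was lost without any sample other than tumour-free replicate 2, at 0.0598, 0.0895, 0.171, 0.175 and 0.0518, and with no filter (0.0621), the stricter filter (0.0643) or no trend (0.0525). Genes of B cell progenitors and germinal centres were low or at 0. *Rag1*, *Rag2* and *Rgs13* were at 0 in TIM4+CD206+ KCs, and *Rag1* was at 0 in TIM4+CD206 high KCs. Of the 8 genes of that list, 3 were above the filter in each subset, *Vpreb3* highest among TIM4+CD206+ KCs with a mean of 5.74 in tumour-free samples, and limma called 0, with 1 and 0 at an unadjusted p under 0.05. Of 8 plasma cell genes, of which *Xbp1* was the most abundant, only *Sdc1* changed and it rose, by 2.16 (adjusted p = 0.0171) and 4.12 (adjusted p = 0.000133) in the subsets, higher in 3 of 3 samples in each. *Sdc1* is also a gene of epithelial cells, and its first call was lost without tumour-free replicate 1 (0.0696) or 3 (0.0691). Of 11 immunoglobulin constant genes looked for by symbol, 0 were rows of the 3 expression tables used here, so they were not analysed.

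Summed levels of some other cell types were also lower in tumour-bearing samples, and their part in the results above was not tested. Of 17 T and NK cell genes, limma called 0 in either subset, with 3 and 7 at an unadjusted p under 0.05, and the median log2 fold changes were −0.45 and −0.60. Their summed log2 level was 13.17, 12.25 and 12.83 in tumour-free and 12.23, 12.19 and 12.21 in tumour-bearing TIM4+CD206+ KCs, and 12.37, 12.22 and 12.52 against 11.77, 11.89 and 11.84 in TIM4+CD206 high KCs. The highest gene was *Lck* in tumour-free and *Gzma* in tumour-bearing samples of the first subset, and *Nkg7* and *Lck* in those of the second. The T and NK cell sums did not overlap between groups in either subset, though in the first by only 12.25 against 12.23, nor did they for the summed log2 level of the 7 B cell genes, which was 13.12, 13.21 and 13.14 against 12.04, 12.29 and 12.15, and 11.72, 12.03 and 11.88 against 11.03, 11.06 and 10.97. Of 8 genes of plasmacytoid dendritic cells, which also transcribe *Blk*, *Ly6d* alone fell in TIM4+CD206+ KCs, at −0.99 (adjusted p = 0.0269 in limma, lower in 3 of 3 samples, its alternatives not run). There 2 of 8 had lower means, *Ly6d* and *Cox6a2*, and the median log2 fold change was 0.15. *Siglech* of the same list had means of 7.48 and 7.75. Whether the *Ly6d* RNA came from plasmacytoid dendritic cells was not tested. Limma called 0 of the 8 genes in TIM4+CD206 high KCs, with 2 at an unadjusted p under 0.05 and a median of −0.11. Their summed log2 level was 11.48, 11.27 and 11.14 against 10.96, 10.72 and 10.77, led by *Ly6d*, and 12.85, 12.82 and 13.12 against 12.36, 12.51 and 12.42, led by *Tcf4*.

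Hepatocyte genes fell in 8 of 10 and 9 of 10 cases, with median log2 fold changes of −1.67 and −1.76. Their summed log2 level was 14.83, 14.34 and 14.80 against 12.99, 12.73 and 13.23 in TIM4+CD206+ KCs, where *Alb* was highest in tumour-free and *Apoa1* in tumour-bearing samples, and 14.68, 14.90 and 14.85 against 12.80, 12.57 and 12.88 in TIM4+CD206 high KCs, led by *Alb*. Of 11 endothelial genes limma called 0 in the first subset, with 4 at an unadjusted p under 0.05, and 3 fell in the second. They summed to 15.01, 14.09 and 14.75 against 14.13, 14.14 and 14.37, led by *Stab2*, and 18.38, 17.74 and 18.34 against 17.12, 17.33 and 17.40, led by *Clec4g*. Of 13 stellate and stromal genes, a lineage that also transcribes *Ebf1*, limma called 0 of 11 tested in the first subset, with 1 at an unadjusted p under 0.05, and 2 of 12 fell in the second. They summed to 9.85, 9.64 and 9.88 against 9.88, 10.36 and 9.84, and 10.90, 10.64 and 10.85 against 10.01, 10.86 and 10.38, with *Col3a1* and *Dcn* highest in tumour-free and *Cxcl14* in tumour-bearing samples.

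Genes of other lists rose in the same comparisons, and neither these lists nor their sums were tested. Of 10 epithelial and tumour cell genes, 9 were tested and 9 rose in both subsets, and they summed to 11.24, 10.85 and 11.84 against 15.51, 15.28 and 15.28, and to 11.10, 11.33 and 10.96 against 15.73, 15.78 and 15.67, led by *Krt8*. Of 11 neutrophil genes, 5 rose in each subset, with sums of 14.01, 13.57 and 14.26 against 15.32, 15.29 and 15.22, and of 13.25, 13.02 and 13.83 against 14.96, 14.84 and 14.37, with *Csf3r* highest except in tumour-bearing TIM4+CD206+ KCs, where *S100a9* led. Of 8 monocyte genes, 3 rose in each subset, with sums of 15.16, 13.73 and 14.66 against 15.56, 15.34 and 15.48, and of 14.54, 14.98 and 14.51 against 15.43, 15.30 and 15.49, with *Plac8* highest except in tumour-bearing TIM4+CD206 high KCs, where *Fn1* led. No gene of the lists of other cell types was at 0 in these subsets. Of the 15 KC genes, 3 fell in TIM4+CD206+ KCs and limma called 0 in TIM4+CD206 high KCs, with 5 at an unadjusted p under 0.05.

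**Figure D3:**
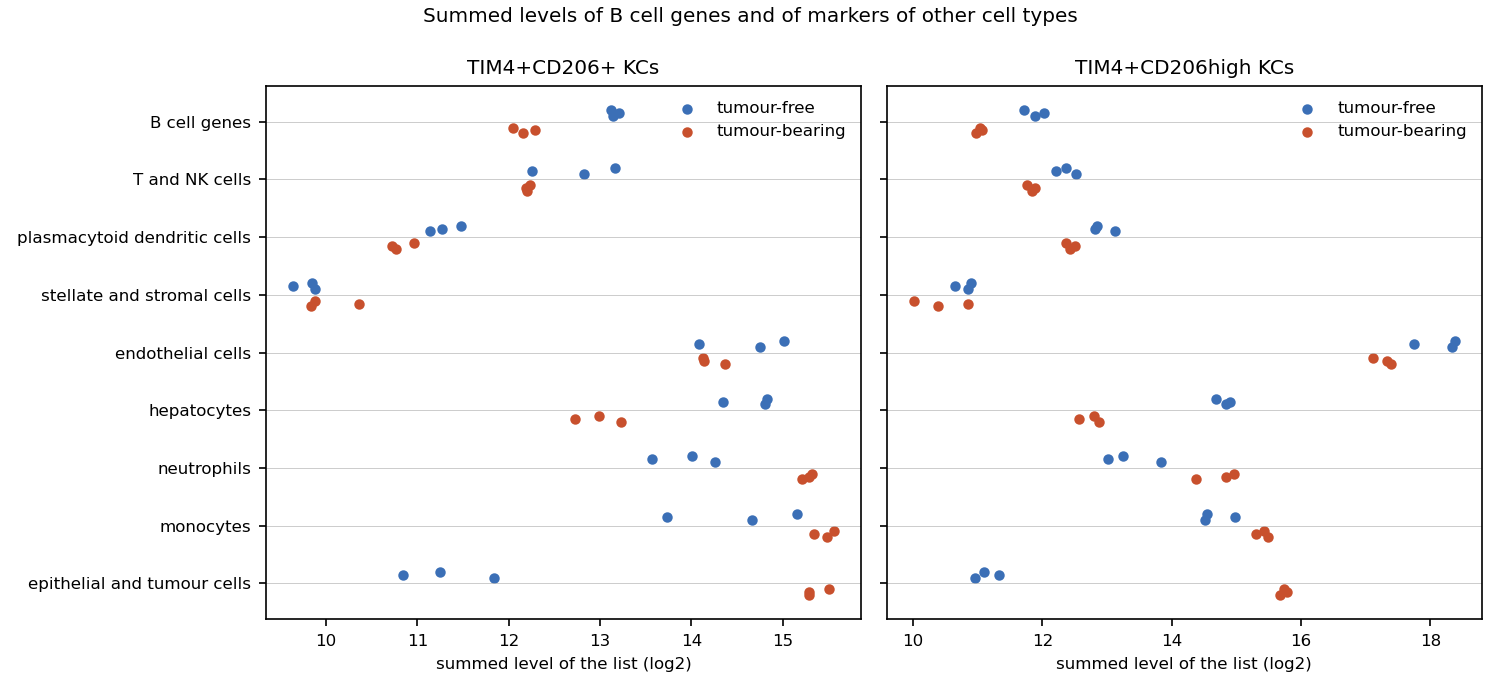
Summed log2 level, per sample, of the 7 B cell genes and of marker lists of other cell types in TIM4+CD206+ KCs (left) and TIM4+CD206 high KCs (right), with tumour-free samples in blue and tumour-bearing samples in red. The B cell genes lie between 13.12 and 13.21 in tumour-free and between 12.04 and 12.29 in tumour-bearing samples on the left.

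Deletion of *Id3* in KCs was checked first on the gene itself, which encodes an inhibitor of E proteins. *Id3* had log2 values of 12.58, 12.46 and 12.82 in *Id3* f/f and 9.83 and 9.82 in *Clec4f* cre*Id3* f/f KCs, a log2 fold change of −2.80 (adjusted p = 1.4e-06, lower in 2 of 2 samples). Of the 5 B cell genes tested, limma called 0, with 0 at an unadjusted p under 0.05, where 3.37% of the 12833 genes tested were lower and 3.08% higher and 3033 had an unadjusted p under 0.05. With medians centred 550 of 878 genes past the threshold were lower, in place of 432 of 827. *Cd79a* had log2 values of 7.37, 7.56 and 7.36 in *Id3* f/f and 7.20 and 7.36 in *Clec4f* cre*Id3* f/f KCs. Replicate 1 of the latter was the lowest of the 5 and the groups overlapped, with a log2 fold change of −0.15 (interval −0.36 to 0.07; adjusted p = 0.416). *Cd79b* had log2 values of 10.04, 10.09 and 10.30 against 10.27 and 10.29. The *Clec4f* cre*Id3* f/f samples lay within the range of the *Id3* f/f samples, and the log2 fold change was 0.14 (interval −0.10 to 0.37; adjusted p = 0.483).

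The remaining genes differed by less than 0.1 between the genotypes. *Ms4a1* had log2 values of 6.31, 6.54 and 6.42 against 6.41 and 6.55, *Blk* 4.89, 4.83 and 4.90 against 4.91 and 4.80, and *Fcmr* 6.31, 6.38 and 6.31 against 6.27 and 6.33. The groups overlapped for all 3 genes. Their log2 fold changes were 0.05 for *Ms4a1* (interval −0.14 to 0.24; adjusted p = 0.769), −0.02 for *Blk* (interval −0.13 to 0.08; adjusted p = 0.841) and −0.03 for *Fcmr* (interval −0.18 to 0.12; adjusted p = 0.822), and the direction of *Ms4a1* and *Blk* turned when single samples were left out. *Pax5* was at 0.33, 0.32 and 0.33 against 0.32 and 0.32, and *Ebf1* at 2.99, 2.98 and 2.97 against 2.94 and 2.95. Both were under the log2 of 10 counts in all 5 samples and were not tested, and at these values the transformation leaves little room for a difference. The 7 genes took 0.00637% ± 0.000539% of the summed linear values in *Id3* f/f (n = 3) and 0.00732% ± 0.000188% in *Clec4f* cre*Id3* f/f KCs (n = 2), and the highest sample of the former, at 0.00695%, lay below the lowest of the latter, at 0.00719%, with *Cd79b* the largest part of both sums. This share was not tested, and the summed level itself overlapped between the genotypes, whose linear totals were lower with *Clec4f* cre.

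The 2 genotypes also differed in sex-linked transcripts, which were chosen after their values were seen. *Xist* had log2 values of 6.38, 6.33 and 6.36 in *Id3* f/f and 9.84 and 9.76 in *Clec4f* cre*Id3* f/f samples, and the Y-linked *Ddx3y* had 9.46, 9.43 and 9.43 against 6.9996 and 7.01. Sex and genotype cannot be told apart in this comparison. Sex-linked transcripts were not examined in the tumour comparisons.

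Of the 6 genes listed as B cell-restricted co-receptors and adaptors that were tested in the *Id3* comparison, limma called 0, with 1 at an unadjusted p under 0.05. In the signalling genes shared with macrophages, 4 of 11 rose, *Pik3ap1* by 0.69 (adjusted p = 0.0158), *Inpp5d* by 0.52 (0.0344), *Ptpn6* by 0.48 (0.0116) and *Lyn* by 0.35 (0.0259). In the same list *Fcgr2b*, the inhibitory Fc receptor, fell by 0.73 (adjusted p = 0.0396) and *Cd37* fell by 0.45 (0.0259). Of 9 B lineage transcription factors tested, *Pou2f2* rose by 0.74 (adjusted p = 0.00396) and *Tcf3*, which encodes E proteins that ID3 binds, by 0.57 (0.0241). *Cxcl13* rose by 1.11 (adjusted p = 0.0291) among 3 ligands tested. Each of these 9 changes was seen in 2 of 2 *Clec4f* cre*Id3* f/f samples, and each call was lost without either of those samples, at an adjusted p between 0.0800 for *Pou2f2* and 0.356 for *Lyn*. Without *Id3* f/f replicate 1 the calls of *Fcgr2b* (0.0504), *Tcf3* (0.0856), *Pik3ap1* (0.0737), *Lyn* (0.0778), *Cd37* (0.0752), *Inpp5d* (0.109) and *Cxcl13* (0.114) were lost, and without replicate 2 those of *Cd37* (0.0516), *Lyn* (0.0560), *Fcgr2b* (0.0805), *Inpp5d* (0.0829) and *Cxcl13* (0.0865). With no filter and with no trend *Fcgr2b* (0.0725 and 0.0888), *Inpp5d* (0.0617 and 0.0599) and *Cxcl13* (0.0586 and 0.0809) did not pass either. Limma called 0 of 8 homing and survival receptors, with 1 at an unadjusted p under 0.05, and 0 of 7 plasma cell genes, with 4. No progenitor gene passed the filter, and *Vpreb2*, *Igll1*, *Rag1*, *Rag2* and *Dntt* were at 0.

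Of the lists of other cell types in the *Id3* comparison, limma called 0 of 14 T and NK cell genes, 0 of 4 of plasmacytoid dendritic cells, 0 of 11 stellate and stromal and 0 of 5 epithelial genes, with 0 at an unadjusted p under 0.05 in each. Of the others, 1 of 8 neutrophil and 1 of 6 monocyte genes fell, 2 of 11 endothelial genes fell and 1 rose, and 1 of 10 hepatocyte genes fell and 1 rose. Among 15 KC genes 7 fell and 3 rose. The 7 include *Id3*, whose fall the deletion itself brings, and *Clec4f*, the gene that drives Cre in the same samples. T and NK cell genes summed to a log2 level of 10.42, 10.33 and 10.22 against 10.40 and 10.40, led by *Cd4*, beside 10.47, 10.54 and 10.67 against 10.63 and 10.67 for the 7 B cell genes.

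The members varied together to different degrees. Over the 17 samples, with each gene centred on its mean within each table, Pearson's r was 0.901 between *Cd79a* and *Cd79b*, 0.777 between *Cd79a* and *Blk*, 0.698 between *Cd79a* and *Ms4a1*, 0.693 between *Cd79b* and *Blk*, 0.538 between *Cd79b* and *Ms4a1* and 0.362 between *Ms4a1* and *Blk*. *Fcmr* stood apart, with r from −0.05 to 0.20 to the other 4. These samples share the tumour and genotype groups, and the samples of a table share its normalization. Among 41 genes of the B cell lists tested in all 3 tables, *Fcmr* was most like *Ltb* (r = 0.902) and *Tcf3* (r = 0.858), a comparison chosen after its values were seen. In tumour-free and tumour-bearing TIM4+CD206+ KCs *Ltb* had log2 values of 7.69, 10.00 and 8.02 against 8.34, 9.70 and 8.17, with replicate 2 highest in both groups as for *Fcmr*. Among 12222 genes tested in all 3 tables, those most like the mean of the 5 members tested there were *Lrrc3* (r = 0.933), *Per1* (0.887), *Dpys* (0.883), *Amdhd1* (0.882), *Serpina1e* (0.878), *H2-Ob* (0.878), *Tsc22d3* (0.873), *R74862* (0.872), *Ppp1r16b* (0.870) and *Btg2* (0.864), over the 17 samples. Within the *Id3* table alone, the r of these 10 ran from −0.855 for *Ppp1r16b* to 0.626 for *Per1*.

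The promoter of *Cd79a* is shown because *Cd79a* passed the test in both KC subsets. RefSeq promoters of GRCm38.p6 were matched by symbol for 4 of the 7 genes (*Cd79a*, *Ebf1*, *Fcmr* and *Pax5*), while *Cd79b*, *Ms4a1* and *Blk* are named only. The window is chr7:24897247-24897546 on the + strand, 300 bases from before to after the RefSeq start, and capitals mark CAGGTG, an E-box that E proteins can bind, and GGAA, the core of Ets sites, each read on both strands.
Cd79a: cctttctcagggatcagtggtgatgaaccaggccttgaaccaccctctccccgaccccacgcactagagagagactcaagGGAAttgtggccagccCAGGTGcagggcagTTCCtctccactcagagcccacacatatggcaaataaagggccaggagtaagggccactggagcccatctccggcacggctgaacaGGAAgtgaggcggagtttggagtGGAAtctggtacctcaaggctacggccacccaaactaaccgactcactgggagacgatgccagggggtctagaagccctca
CAGGTG stands once, at bases 97 to 102, which is −154 from the RefSeq start as placed in this window. GGAA stands at bases 81, 197 and 220 and, on the other strand, at base 111. The gene coordinates given above begin at 24897381, a different start inside the window, so distances depend on the start taken. Of 32851 promoters of this length, 20.2% hold CAGGTG and 96.0% hold GGAA. The wider CANNTG, which includes CAGGTG, stands at 2 places and is held by 72.3%, while ATGCAAAT (held by 1.74%) and CCCNNGGG (13.7%) are not in this window. CAGGTG also stands once in the window of *Fcmr* and not in those of *Pax5* and *Ebf1*. These matches describe letters only.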

How the data were processed

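Per the submitters' notes, the authors aligned reads to mm10 with STAR 2.7.10a and used HTSeq and DESeq2. The 3 deposited tables hold log2 values, although their names speak of counts or TPM, with features of a regularized log transformation within each table. Genes without reads are at exactly 0. The members and lists were chosen with earlier results of these data known, and 2 genes of the lists are not reported here. Each table was fitted with limma 3.58.1 (R 4.3.3), allowing a trend of variance with level, two-sided, with Benjamini-Hochberg adjustment over all genes tested, and the fit was tried on simulated data. Named are the 7 members, called genes of the B cell lists, the most abundant gene of lists by group, *Timd4*, *Mrc1*, *Id3*, the 10 genes most like the members, genes of lists at 0, and, after their values were seen, sex-linked genes, *Vpreb3* and those most like *Fcmr*. Alternatives were no filter, a mean of at least 50 counts, no trend, median centring, quantile normalization, the replicate number as a block, and each sample left out. Deviations of samples of the same number correlated in TIM4+CD206+ KCs (r = 0.35, 0.56 and 0.15), those of different numbers with r from −0.53 to 0.30, so a pairing is not settled. Gene coordinates and exon lengths are of GRCm38. Sums add linear values, shown as log2. Python 3.11.15, numpy 2.4.6, pandas 2.3.3 and matplotlib 3.10.9 were used.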

Additional observations from a re-analysis of the deposited data

How the results depend on the processing

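The count of genes with an adjusted p under 0.05 moved with the replicate block from 469 to 1026 in TIM4+CD206+ KCs and from 827 to 2089 in the *Id3* comparison, and was 909 in place of 1053 in TIM4+CD206 high KCs. The stricter filter gave 600 in TIM4+CD206 high KCs, and no filter gave 477 in the *Id3* comparison. Leaving out 1 sample gave 228 to 1018, 579 to 3653 and 17 to 1850 genes in TIM4+CD206+ KCs, TIM4+CD206 high KCs and the *Id3* comparison. Of the B cell genes, 1 to 3 and 0 to 3 were then called in the KC subsets, and 0 in the *Id3* comparison under every alternative run. With the replicate block 3, 1 and 0 were called, as the adjusted p of *Cd79b* among TIM4+CD206 high samples was 0.0642, in a range over alternatives of 0.0201 to 0.150. In TIM4+CD206 high KCs and the *Id3* comparison same-numbered samples share only a number, with r of −0.05, −0.13 and −0.05, and of −0.07 and −0.10.

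In TIM4+CD206 high KCs the log2 fold change of *Ebf1* turned to 0.11 without tumour-free replicate 2 and was −0.40 without replicate 3, and that of *Fcmr* was 1.23 without replicate 2 and −0.36 without replicate 3. In the *Id3* comparison that of *Ms4a1* was −0.0050 without *Id3* f/f replicate 1, and 0.119 and −0.0130 without *Clec4f* cre*Id3* f/f replicate 1 and 2, and that of *Blk* was −0.0755 and 0.0346 without those 2. The cause was not tested. Where 1 *Clec4f* cre*Id3* f/f sample was left, it is assumed to vary like the other group. *Pax5* and *Ebf1* were under 10 counts in 2 of 3 tables and were not tested there. The *Cd79a*, *Cd79b* and *Blk* changes with tumour kept their direction in every alternative.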
